A study of Mus musculus with 24 samples.

Results

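MicroRNAs (miRs) were compared in the hippocampus of neonatal mice given morphine at 5 mg/kg (MS5) and at 2 mg/kg (MS2), using 3 arrays of each group, 6 of the 24 arrays of the series. The members were chosen by the dose in the labels, and all 1412 mouse probe sets of the miR table were used, 722 for mature miRs and 690 for their hairpin precursors. Every array held total RNA from the hippocampi of a C57BL/6 pup labelled male and killed on postnatal day 9. From postnatal day 5 the pups of both treated groups had received morphine under the skin before repeated apnea in nitrogen, and were kept apart from the dam between sessions. The MS2 and MS5 groups thus shared the injection, apnea and separation, and differed in dose. Control pups had no morphine and stayed untreated with the dam, and their 3 miR arrays entered the estimate of spread. No group on these arrays had received the stress protocol without morphine.

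A miR is a short RNA that loads into the Argonaute complex and lowers the stability and translation of mRNAs that pair with its seed, the bases counted as 2 to 8 from the 5′ end. It is cut from a hairpin, and either arm of the hairpin can give a mature miR; the star marks the arm that was held to be the minor product when the array was designed. Many miRs are enriched in 1 cell type: miR-124 in neurons, miR-204 in the choroid plexus, the epithelium that makes cerebrospinal fluid, and miR-34b, miR-34c and miR-449 in cells with motile cilia. Since the tissue was measured in bulk, fewer cells of a type and less of a miR per cell cannot be told apart.

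Levels are the log2 array values deposited by the authors, and differences are MS5 minus MS2 on the same scale, so 1 is a doubling. Among neuron-enriched miRs, the mean over the 9 miR arrays was 14.3 for miR-124, 12.95 for miR-138 and 10.99 for miR-128, while the liver miR-122 averaged 4.68. Not all miRs of that list were abundant: 16 of its 19 mature probe sets had a mean level of 5 or more. MiR-7b and miR-218-1* averaged 4.29 and 4.09. A mean level of 5 or more was reached by 354 probe sets, 328 of them mature and 26 hairpins. Correlations between arrays over all probe sets ran from 0.983 to 0.996. Within the MS2 group, replicate 4 stood apart: it correlated at 0.983 and 0.985 with replicates 3 and 6, which correlated at 0.996 with each other. Across all 9 arrays it was replicates 3 and 6 that lay away from the rest. On the first principal component, the axis of greatest spread (38.9%), they were at 6.18 and 5.70. The other arrays lay between -4.83 (MS2 replicate 4) and 1.40 (MS5 replicate 12). On miR-383, chosen after its values were seen, MS2 replicate 4 measured 11.05, above 8.03 and 8.60 on MS2 replicates 3 and 6. Within the MS5 group, replicate 9 carried several of the miRs described here at control level where replicates 12 and 14 were low. The mRNA array that bears the number MS5 9 had Xist, the RNA of the inactive X chromosome of females, at 11.34, against 5.9 to 6.08 on the other 14 mRNA arrays, although all pups are labelled male. Results that rest on these arrays are given with and without them.

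The sequences of the miRs that carry the comparison are shown first, because several of them share a seed and so could pair with the same sites. They come from RefSeq (mouse assembly GRCm38.p6), written 5′ to 3′ with the seed in capitals. The first set holds miRs that were lower in MS5. MiR-34a, miR-34b-5p and miR-449a come from 3 chromosomes and share the seed GGCAGUG. The array's name for miR-448 gives no arm, so both arms are printed.
miR-204-5p: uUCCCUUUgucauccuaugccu
miR-448-5p: gAACAUCCugcauagugcugcc
miR-448-3p: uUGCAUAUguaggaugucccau
miR-34a-5p: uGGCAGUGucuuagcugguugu
miR-34b-5p: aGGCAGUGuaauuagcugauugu
miR-449a-5p: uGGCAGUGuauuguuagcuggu
miR-130a-3p: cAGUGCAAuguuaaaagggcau
miR-301a-3p: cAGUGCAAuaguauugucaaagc
The second set holds miRs that were higher in MS5. MiR-212 and miR-132 are neighbours on chromosome 11 and share the seed AACAGUC, and the arms of the miR-139 hairpin have different seeds.
miR-139-3p: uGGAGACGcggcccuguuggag
miR-139-5p: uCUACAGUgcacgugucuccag
miR-212-3p: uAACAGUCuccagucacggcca
miR-132-3p: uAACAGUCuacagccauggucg

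Few miRs separated the doses. At the study's threshold, a fold change over 1.5 together with unadjusted p below 0.05, limma called 6 of the 1412 probe sets (0.425%), all of them mature miRs. MiR-139-3p and miR-187 were higher in MS5, 0.142% of those tested, and miR-448, miR-204, miR-34b-5p and miR-34a were lower, 0.283%. Without the limit on fold change 99 probe sets (7.01%) had an unadjusted p under 0.05, 62 higher (4.39%) and 37 lower (2.62%). After Benjamini-Hochberg adjustment 0 probe sets had an adjusted p under 0.05 in limma, and the smallest adjusted p was 0.128, that of miR-212. The 3 MS5 arrays lay entirely above or below the 3 MS2 arrays at 119 probe sets (8.43%), 79 of them above (5.59%) and 40 below (2.83%). Of the 6 called miRs, miR-139-3p alone was separated in this way. The median difference over all probe sets was 0.01. A two-sided exact permutation test of 3 arrays against 3 cannot give a p under 0.1, which is the p of groups that do not overlap. Arrays assigned to the groups at random would be separated at a share of about 0.1 of probe sets, where 8.43% was seen. Non-overlap alone therefore does not set a miR apart, here or below.

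**Figure D1:**
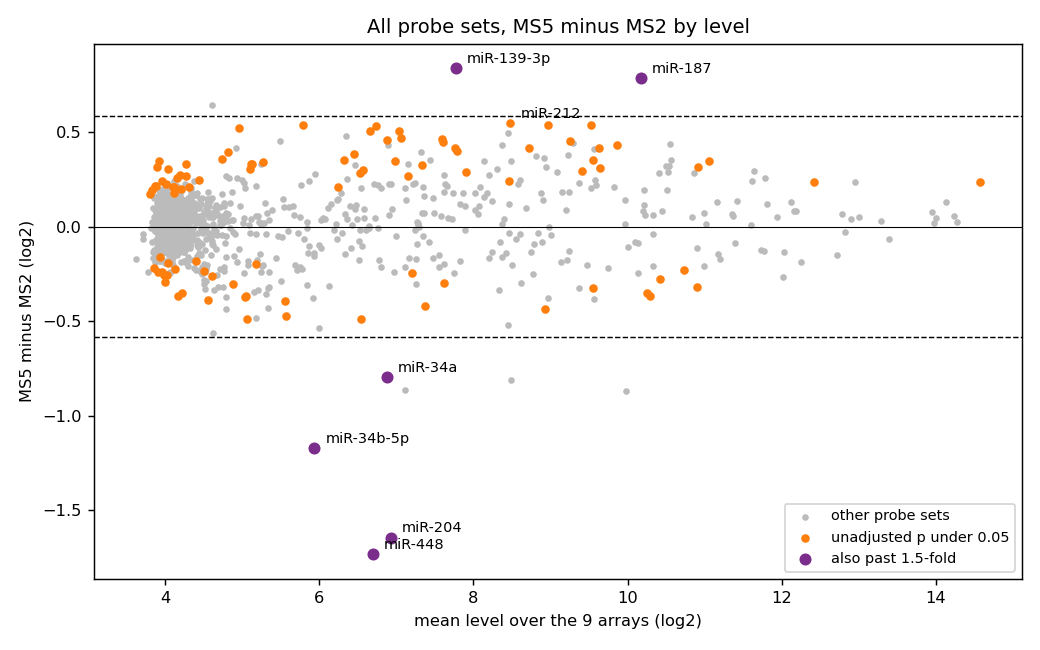
Each point is a probe set, placed by its mean level over the 9 miR arrays (horizontal axis, log2) and its difference MS5 minus MS2 (vertical axis, log2), with dashed lines at 1.5-fold. The 6 called miRs have mean levels between 5.94 and 10.2, and the 4 lower ones reach further from 0 than the 2 higher ones.

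The largest differences were those of miR-448 and miR-204, which were about 3-fold lower in MS5. MiR-448 lies in an intron of Htr2c, the serotonin receptor gene that the choroid plexus expresses strongly, at chrX:147158210-147158321. It measured 7.52, 6.92 and 7.52 on MS2 replicates 3, 4 and 6, and 7.25, 4.81 and 4.71 on MS5 replicates 9, 12 and 14. The control arrays had 7.16, 6.76 and 7.61, so MS5 replicates 12 and 14 were the low arrays and MS5 replicate 9 lay within the range of both other groups. The difference was -1.73 (SE 0.59), a mean 3.32-fold lower, with an unadjusted p of 0.0161 and an adjusted p of 0.599 in limma. The exact permutation p was 0.2. Without MS5 replicate 9 miR-448 was 5.92-fold lower, with a difference of -2.56 and an adjusted p of 0.0113 in limma, the only adjusted call made under that setting. Since that array stood out by its level of miR-448 itself, this adjusted p is no independent test. The call of miR-448 was lost without MS5 replicate 12 or MS5 replicate 14.

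MiR-204 is made from an intron of Trpm3, a cation channel gene, at chr19:22750605-22750672. Its levels were 8.30, 6.84 and 7.70 on MS2 replicates 3, 4 and 6, and 7.31, 5.23 and 5.37 on MS5 replicates 9, 12 and 14. The same MS5 arrays were low as for miR-448, and MS5 replicate 9 again lay above MS2 replicate 4. The controls had 6.99, 7.06 and 7.53. The difference was -1.64 (SE 0.54), 3.12-fold lower in MS5, with an unadjusted p of 0.0134 and an adjusted p of 0.557 in limma. It became -2.31 without MS5 replicate 9, and the call was lost without MS2 replicate 3, MS5 replicate 12 or MS5 replicate 14. MiR-211, which shares the seed of miR-204, was near the bottom of the scale at a mean level of 4.29 and differed by -0.09 (unadjusted p = 0.420). The hairpin probe sets of miR-204 differed by -0.14 and -0.18 and that of miR-448 by 0.04, and none had an unadjusted p under 0.05. MiR-764-5p and miR-764-3p, from the same host gene as miR-448, differed by -0.35 and -0.43, with unadjusted p of 0.0967 and 0.0587.

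The miR-34 and miR-449 family was lower in MS5 at 7 of its 8 mature probe sets, with a median difference of -0.80, and 2 of the 8 were called, both lower. Of all 722 mature probe sets, 383 had a difference above 0. The family is tied to multiciliated cells and, for miR-34a, to the p53 response. MiR-34b and miR-34c share 1 transcript on chromosome 9 and miR-449a lies in an intron of Cdc20b on chromosome 13. MiR-34b-5p measured 6.68, 5.85 and 6.66 on MS2 replicates 3, 4 and 6, and 6.16, 4.72 and 4.80 on MS5 replicates 9, 12 and 14. Again 12 and 14 were low while replicate 9 lay within the MS2 range. Its difference was -1.17 (SE 0.41), 2.25-fold lower, with an adjusted p of 0.599 in limma. MiR-34a measured 7.33, 7.50 and 6.84 on the MS2 arrays and 7.003, 6.36 and 5.93 on the MS5 arrays in the same order. This miR differed from the others in that MS2 replicate 4 was its highest MS2 array. Its difference was -0.80 (SE 0.30), 1.74-fold lower, with an adjusted p of 0.612 in limma.

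MiR-34c, the most abundant of the family at about 10, measured 10.33, 9.83 and 10.16 on MS2 replicates 3, 4 and 6 and 10.75, 8.45 and 8.50 on MS5 replicates 9, 12 and 14. MS5 replicate 9 was thus above every MS2 array, and the difference of -0.87 (SE 0.57) had an unadjusted p of 0.159. MiR-34b-3p differed by -0.86, miR-449a by -0.81 and miR-34c* by -0.52, with unadjusted p of 0.0764, 0.176 and 0.254 in limma. Each was lowest on MS5 replicates 12 and 14. MiR-449b and miR-449c, at mean levels below 5, differed by 0.10 and -0.06. How far the probes for such similar sequences tell them apart was not tested.

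**Figure D2:**
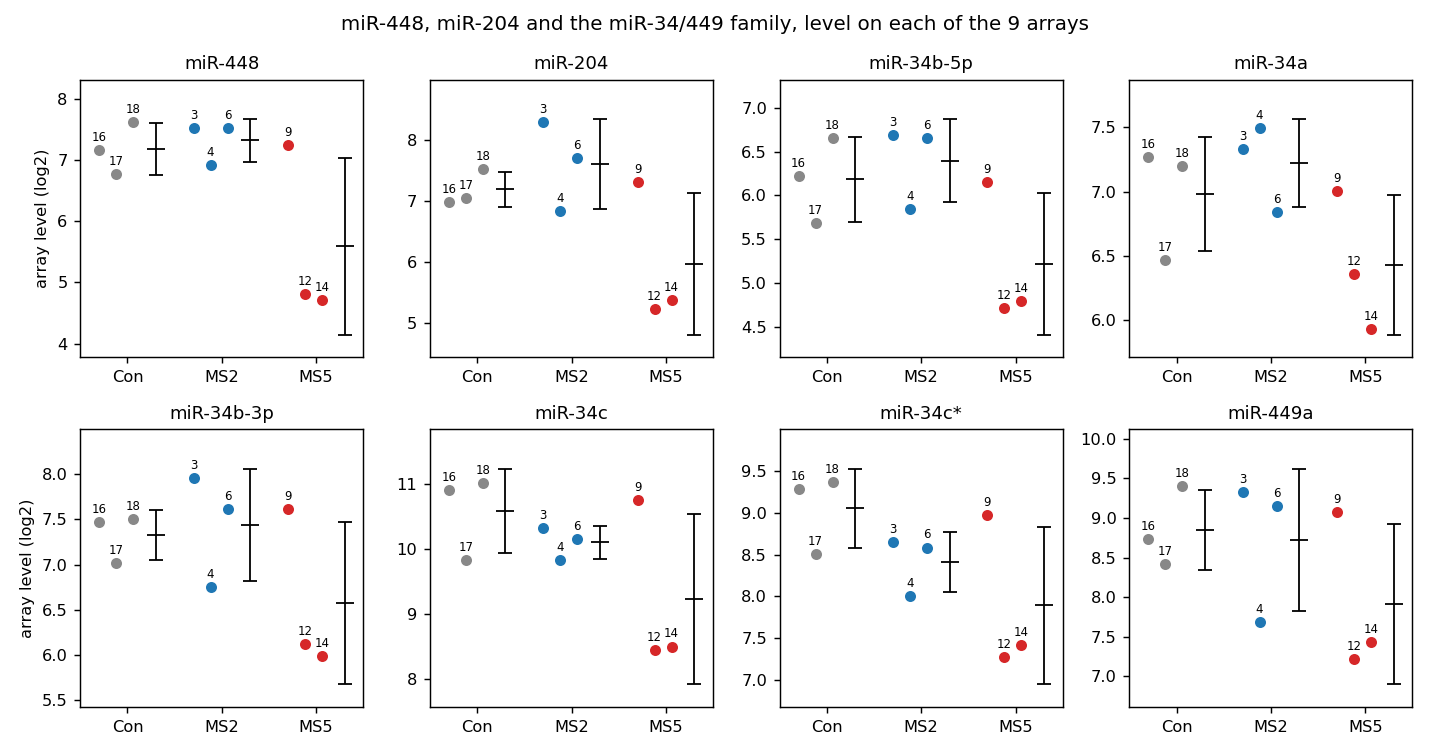
Level (log2) of 8 miRs on each array, 3 arrays a group, with the replicate number above each point and the mean and SD drawn to its right. In all 8 panels MS5 replicates 12 and 14 lie below every MS2 array, while MS5 replicate 9 lies with the control or MS2 arrays.

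Leaving out MS5 replicate 9 moved every miR of this group further from 0: miR-34b-5p to -1.64, miR-34c to -1.63, miR-449a to -1.39, miR-34b-3p to -1.38, miR-34a to -1.08 and miR-34c* to -1.06. With both MS2 replicate 4 and MS5 replicate 9 left out, a setting chosen after seeing the data, limma made 5 adjusted calls, all lower in MS5. They were miR-448 (-2.77, adjusted p = 0.00111), miR-204 (-2.70, adjusted p = 0.00111), miR-34b-3p (-1.73, adjusted p = 0.00479), miR-34b-5p (-1.91, adjusted p = 0.0192) and miR-449a (-1.91, adjusted p = 0.0248). MS5 replicate 9 was singled out by its levels of these same miRs, so their adjusted p without it are no independent test. In the other direction, without MS5 replicate 12 or MS5 replicate 14 none of miR-448, miR-204, miR-34b-5p and miR-34a was called. Without MS5 replicate 12 the differences were -1.27 for miR-204, -0.92 for miR-34b-5p, -0.48 for miR-34c and -0.21 for miR-34c*. Without MS5 replicate 14 they were -1.29 for miR-448, -0.57 for miR-34b-3p and -0.54 for miR-34a. MiR-34b-5p was also lost without MS2 replicate 3 or 6, and miR-34a without MS2 replicate 3 or 4.

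Transcripts of the choroid plexus moved between arrays of the same experiment, and their values are set beside those of the miRs. Of 14 choroid plexus mRNAs, among them Ttr (transthyretin), Kl (klotho) and Folr1 (a folate receptor), all 14 were well above background on all 15 mRNA arrays. Their median difference from the control mean lay between -0.51 and 0.44 on the 5 control arrays, between -0.50 and 0.18 on the 5 MS2 arrays and between -3.20 and -0.04 on the 5 MS5 arrays. For the replicate numbers that also had a miR array, it was -2.30 on MS5 9, -0.04 on MS5 12 and -3.20 on MS5 14, with 13, 0 and 13 of the 14 mRNAs more than 1 (log2) below the control mean. Ttr measured 15.93, 17.92 and 12.84 on these arrays, against 18.05 on MS2 3 and 17.79 on MS2 4. Trpm3, the host gene of miR-204, measured 7.56, 9.86 and 7.09 on MS5 9, 12 and 14, and 10.45 and 9.74 on MS2 3 and 4. Htr2c, the host gene of miR-448, measured 12.04, 12.49 and 12.09 on MS5 9, 12 and 14.

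For MS5 14 the choroid plexus mRNAs and the choroid plexus miRs were both low. For MS5 9 the mRNAs were low and miR-204 and miR-448 were at control level, and for MS5 12 it was the reverse. Whether the same number marks the same pup on both array types was not tested. An exchange of numbers within the MS5 group would leave the group means and the differences above as they are. The part of the choroid plexus content of each dissection in the miR differences was not tested.

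**Figure D3:**
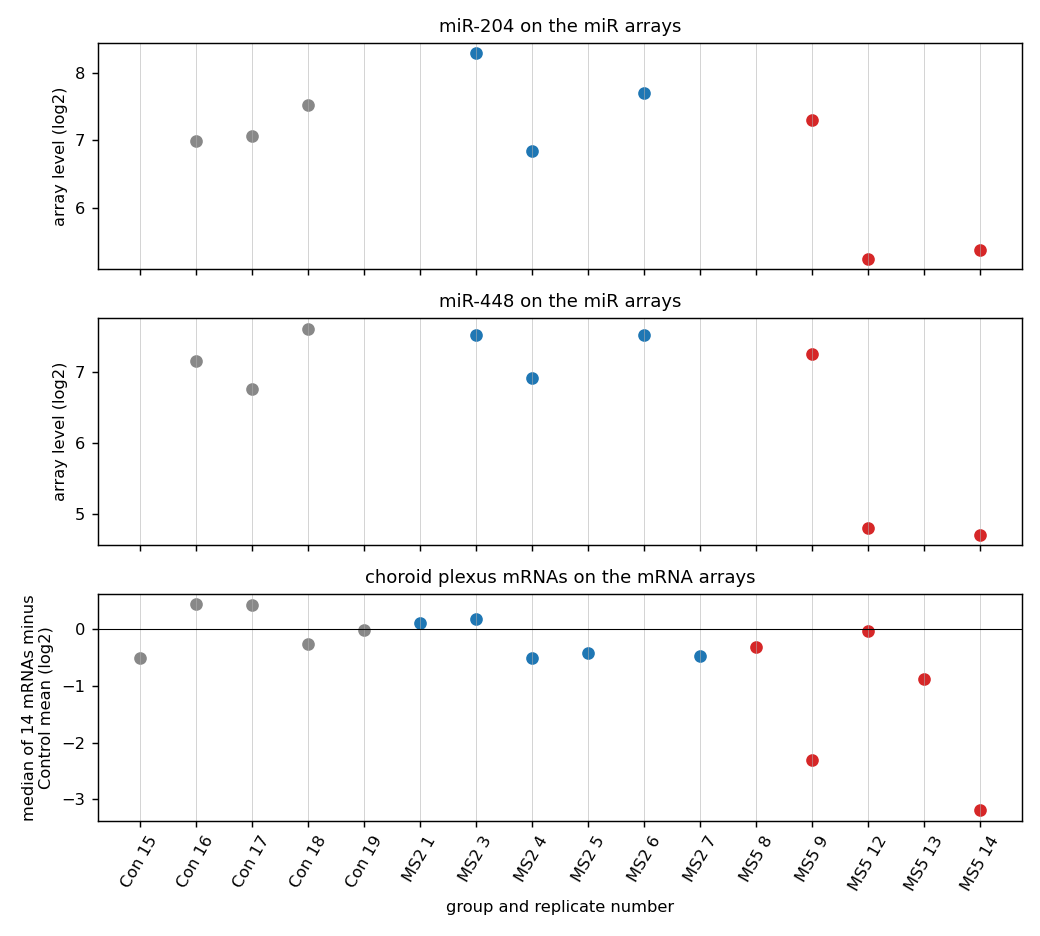
Levels of miR-204 and miR-448 (log2, miR arrays) and the median of 14 choroid plexus mRNAs relative to the control mean (log2, mRNA arrays), by group and replicate number; an empty column means no array of that kind. MS5 14 is low in all 3 panels, MS5 9 is low for the mRNAs and not for the miRs, and MS5 12 is low for the miRs and not for the mRNAs.

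MiR-139-3p had the largest rise, and its call was kept in every setting tried. The miR-139 hairpin lies in an intron of Pde2a, a phosphodiesterase gene, at chr7:101475376-101475443. MiR-139-3p measured 7.29, 6.82 and 7.36 on MS2 replicates 3, 4 and 6, and 8.08, 7.92 and 7.98 on MS5 replicates 9, 12 and 14. All 3 MS5 arrays lay above all MS2 arrays, and the controls at 8.45, 8.07 and 8.00 were close to MS5. The difference was 0.84 (SE 0.16), 1.79-fold higher in MS5, with an unadjusted p of 0.000467 and an adjusted p of 0.330 in limma. The exact permutation p was 0.1, the smallest possible. Over the left-out arrays the difference ran from 0.67 to 0.94. MiR-139-5p, the arm with the seed CUACAGU, measured 9.44, 9.02 and 9.54 in MS2 and 9.79, 9.93 and 9.89 in MS5. Its groups did not overlap either, and its difference of 0.54 (SE 0.13), 1.45-fold, fell short of the fold limit with an unadjusted p of 0.00257. Unlike the other arm, its controls, at a mean of 9.39, were close to MS2. The hairpin probe set differed by 0.34 (unadjusted p = 0.0135), also without overlap.

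MiR-187, the other called rise, owed much of its size to MS2 replicate 4. Its MS2 levels were 10.21, 8.82 and 10.14 on replicates 3, 4 and 6, and its MS5 levels 10.89, 10.13 and 10.51 on replicates 9, 12 and 14. MS2 replicate 4 alone was low, and MS5 replicate 12 lay below both other MS2 arrays. The difference of 0.79 (SE 0.34) had an unadjusted p of 0.0441. It became 0.33 without MS2 replicate 4 and was then not called, and the call was also lost without MS5 replicate 9 or 14.

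MiR-212 had the smallest p of all probe sets, although it stayed under 1.5-fold. MiR-212 and miR-132 are made from 1 short transcript on chromosome 11, which is switched on by CREB in active neurons. MiR-212 measured 8.02, 8.22 and 8.12 on MS2 replicates 3, 4 and 6, and 8.72, 8.57 and 8.71 on MS5 replicates 9, 12 and 14. The groups did not overlap, and the controls at 8.73, 8.65 and 8.57 were close to MS5. The difference was 0.55 (SE 0.083), 1.46-fold, with an unadjusted p of 9.05e-05 and an adjusted p of 0.128 in limma. MiR-132, with the same seed, measured 10.77, 11.21 and 10.86 in MS2 and 11.29, 11.23 and 11.36 in MS5. Its difference was 0.35 (SE 0.12, unadjusted p = 0.0198), and MS2 replicate 4 lay just under the lowest MS5 array. The controls of miR-132, at 11.02, 11.04 and 10.76, lay below every MS5 array.

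**Figure D4:**
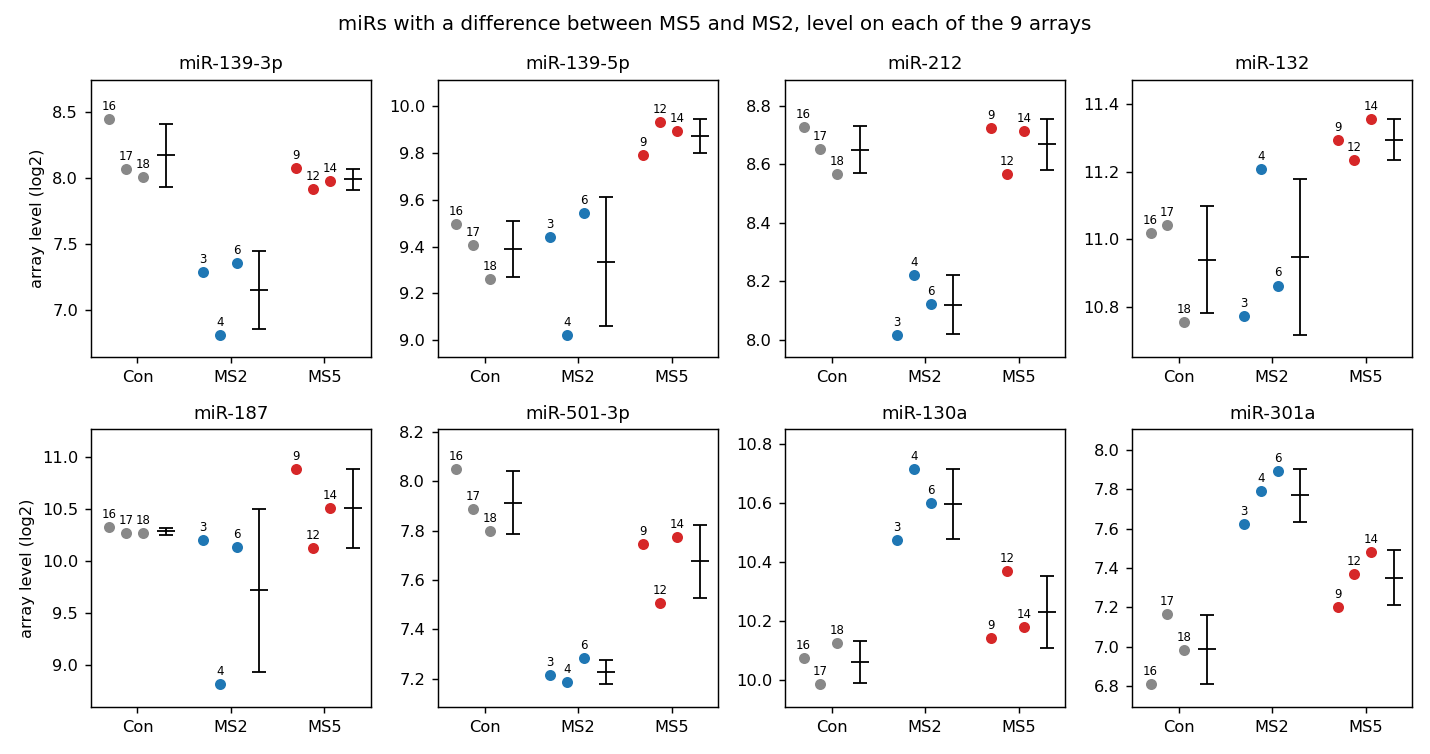
Level (log2) of 8 miRs on each array, drawn as in the plot of the lower miRs. MS5 and MS2 do not overlap for miR-139-3p, miR-139-5p, miR-212, miR-132, miR-501-3p, miR-130a and miR-301a, and they overlap for miR-187, where MS2 replicate 4 is low.

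The 12 largest positive differences with an unadjusted p under 0.05 were completed by miR-330*, miR-15a*, miR-666-3p, miR-218-2*, miR-423-5p, miR-673-5p, miR-491 and miR-667, with differences from 0.46 to 0.54. Of these, miR-15a*, miR-218-2*, miR-423-5p, miR-673-5p and miR-491 had all 3 MS5 arrays above all MS2 arrays. MiR-491, for instance, measured 6.67, 6.81 and 6.57 in MS2 and 7.44, 6.95 and 7.07 in MS5, with controls between 7.12 and 7.69. MiR-330* had MS2 levels of 8.29, 9.00 and 8.40 and MS5 levels of 9.13, 8.80 and 9.37, so MS2 replicate 4 lay within the MS5 range, as it did for miR-667. For miR-666-3p, MS2 replicate 4 and MS5 replicate 12 had the same level of 6.72. The difference of miR-673-5p was 0.50 and became 0.26 without MS2 replicate 4, and that of miR-15a* became 0.35.

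The 12 largest negative differences with an unadjusted p under 0.05 were completed by miR-337-3p, miR-146a, miR-154*, let-7g, miR-301a, miR-669n, miR-466a-3p and miR-496. Those named here had differences from -0.37 to -0.49. Without MS5 replicate 9 miR-154* had -0.26 and miR-496 -0.21, and neither then had an unadjusted p under 0.05. MiR-146a, which holds back signalling by innate immune receptors, measured 6.88, 7.10 and 6.74 in MS2 and 6.20, 6.65 and 6.42 in MS5. The groups did not overlap, and the controls, at 6.21, 6.31 and 6.32, lay between the lowest and the middle MS5 array. Its difference was -0.49 (SE 0.13, unadjusted p = 0.00375). MiR-301a measured 7.62, 7.79 and 7.89 in MS2 and 7.201, 7.37 and 7.48 in MS5, again without overlap, for a difference of -0.42 (SE 0.12, unadjusted p = 0.00559). MiR-130a, with the same seed and chosen after its values were seen, measured 10.48, 10.71 and 10.60 in MS2 and 10.14, 10.37 and 10.18 in MS5. Its difference was -0.37 (SE 0.091, unadjusted p = 0.00282). MiR-130b, whose RefSeq sequence has this seed too, differed by 0.22 (unadjusted p = 0.62), with 9.80 on MS2 replicate 4 and 7.73 and 8.01 on the other MS2 arrays.

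Among the 62 higher probe sets 46 were mature and 16 hairpins, and among the 37 lower ones 32 were mature and 5 hairpins. A mean level of 5 or more was reached by 40 of the higher and 21 of the lower probe sets. The mean of the MS5 arrays was nearer to the control mean than that of the MS2 arrays at 46 of the 62 higher probe sets (74.2%) and 23 of the 37 lower ones (62.2%), where the share over all 1412 was 55.9%. These shares describe groups that were picked for their distance between MS5 and MS2, and were not tested. The 5 hairpins of mean level 5 or more with an unadjusted p under 0.05 were all higher in MS5: mir-138-2, mir-139, mir-466f-3, mir-194-2 and mir-320, by 0.30 to 0.34.

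The lists of miRs by cell type or genome cluster give the remaining groups, each as counts over mature probe sets, beside 46 higher and 32 lower at an unadjusted p under 0.05 of all 722. Neuron-enriched miRs had 4 higher and 0 lower of 19, with a median difference of 0.05. The 4 were miR-212, miR-132, miR-218-2* and miR-138*. MiR-218-2* had a mean level of 4.96. MiR-218 and miR-138, named without the star, differed by -0.23 and 0.24, with unadjusted p of 0.497 and 0.111 in limma. MiR-138* measured 7.42, 7.53 and 7.54 in MS2 and 8.10, 7.72 and 7.93 in MS5 without overlap, for a difference of 0.42 (SE 0.096, unadjusted p = 0.00178). The abundant miR-124 (0.03), miR-128 (-0.21) and miR-9 (-0.31) had unadjusted p of 0.756, 0.324 and 0.352. Mesenchymal miRs had 1 higher, miR-574-5p by 0.40, and 0 lower of 15, with 10 of the 15 below 0 and a median of -0.19. The difference of miR-574-5p was 0.24 without MS5 replicate 14, and its unadjusted p was no longer under 0.05 without that array or without MS2 replicate 3. Of 11 immune-cell miRs miR-146a was the 1 with an unadjusted p under 0.05. In the endothelial list miR-126-3p differed by -0.35 (unadjusted p = 0.0484), and none of 3 red-cell and 3 oligodendrocyte miRs had an unadjusted p under 0.05. Among miRs that mark other tissues, 1 epithelial miR was higher and 1 lower of 12, and 0 were higher and 1 lower of 9 from the Hox clusters. None of 8 muscle miRs and 4 of the miR-183 cluster had an unadjusted p under 0.05. In the epithelial, Hox, muscle and miR-183 lists only 1 miR, of muscle, had a mean level of 5 or more. The rest lay under that level, where there is little room to fall. The hypoxia-induced miR-210 differed by 0.18, with 7.96, 8.18 and 7.60 in MS2 and 8.41, 7.87 and 7.99 in MS5. The controls of miR-210 lay between 8.28 and 8.67.

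The miRs tied to opioids in earlier work, a list that overlaps the others, had 4 higher and 4 lower of 32. Higher were miR-212, miR-132, miR-339-3p and miR-15b*, and lower were let-7i, let-7g, miR-154 and miR-154*. Let-7, a family that restrains the mu opioid receptor mRNA, had 0 higher and 2 lower of 19 mature probe sets, with a median difference of -0.03. The 19 include miR-98, both arms of miR-202 and the star arms of let-7. Let-7i measured 11.37, 11.05 and 11.21 in MS2 and 10.84, 10.90 and 10.94 in MS5, for a difference of -0.32 (SE 0.092, unadjusted p = 0.00712). Its controls were lower still, between 10.51 and 10.67. Let-7g differed by -0.43 (SE 0.16, unadjusted p = 0.0223), and its groups overlapped. The miR-17 cluster and its paralogs had 3 higher and 2 lower of 21.

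The Dlk1-Dio3 cluster on chromosome 12, an imprinted run of miRs that neurons express from the maternal chromosome, had 6 higher and 4 lower of 77 mature probe sets, with a median difference of 0.08. Higher were miR-666-3p, miR-673-5p, miR-667, miR-431, miR-409-3p and miR-127, and lower were miR-337-3p, miR-154, miR-154* and miR-496. Both directions occurred within the stretch near Rtl1, where 12 of 16 mature miRs of mean level 5 or more were above 0, and within the longer stretch downstream, where 19 of 31 were, beside 191 of all 328 mature probe sets of that level. MiR-127, the most abundant of those named, differed by 0.23 (unadjusted p = 0.0138), and by 0.16 (unadjusted p = 0.136) with GC content regressed out as in the base composition comparison. In the limma refit of that comparison its unadjusted p was already 0.0752 before GC content was regressed out. In the list for the Sfmbt2 intron cluster 1 was higher and 3 were lower of 54. That list goes by miR name, and 1 of the lower members, miR-669n, lies on chromosome 3 in Slc30a7 in RefSeq, outside the cluster.

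Genome neighbours were also looked at without a list, as runs of hairpins on 1 strand less than 10000 bases apart with at least 4 mature miRs of mean level 5 or more. There were 8 such runs. The run on the X chromosome in Clcn5, a chloride transporter gene, was singled out after its values were seen: 7 of its 8 miRs were above 0 and 4 had an unadjusted p under 0.05, miR-501-3p, miR-532-5p, miR-500 and miR-188-5p. Of all 328 mature probe sets of that level 191 were above 0, and 35 were higher at an unadjusted p under 0.05. MiR-188-5p differed by 0.33, and by 0.19 (unadjusted p = 0.359) with GC content regressed out. Before that step its unadjusted p in the same limma refit was 0.0509. MiR-501-3p measured 7.21, 7.18 and 7.28 in MS2 and 7.75, 7.50 and 7.77 in MS5, and the controls had 8.05, 7.89 and 7.80. Its difference was 0.45 (SE 0.096), with an unadjusted p of 0.00113 and an adjusted p of 0.478 in limma. MiR-532-5p and miR-500 differed by 0.43 and 0.42, also without overlap. MiR-501-5p, the other arm of miR-501, differed by -0.32 (unadjusted p = 0.344).

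The study had taken 10 miRs to RT-PCR, chosen on these same arrays, so their list is not independent of the values here. Of the 10, miR-204 and miR-448 were called between the doses. MiR-34c and miR-34c* were described above. The other 6 differed little between the doses on these arrays: miR-574-3p by 0.18, miR-455 by -0.16, miR-214 by 0.09, miR-1839-3p by 0.05, miR-1983 by -0.05 and miR-153 by -0.03. MiR-455 measured 8.25 ± 0.27 in MS2 and 8.09 ± 0.27 in MS5 (SD, n = 3), and its unadjusted p was 0.394 in limma. MiR-574-5p, the other arm of miR-574, measured 7.35, 7.48 and 7.45 in MS2 and 7.76, 7.57 and 8.15 in MS5. Its groups did not overlap (unadjusted p = 0.0186).

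Base composition moved with the comparison. GC content could be given to 257 mature probe sets of mean level 5 or more, from the matched sequence for 88 and from the mean of the arms of the hairpin for 169. Across these miRs the Pearson correlation of GC content with MS5 minus MS2 was 0.378, a description over points that share the same 6 arrays. MiRs of 55% GC or more (87) had a median difference of 0.22 and those of 40% or less (28) one of -0.12. By array, the GC-rich miRs stood at -0.35 and -0.31 relative to their 9-array mean on MS2 replicates 3 and 6, and at 0.084 on MS2 replicate 4. On the MS5 arrays they stood between -0.10 and 0.12, and on the controls between 0.074 and 0.26.

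With GC content regressed out of each array over these miRs, a setting chosen after seeing the data, the 5 of the 6 called miRs that have a sequence stayed past the threshold. They were miR-448 (-1.70), miR-204 (-1.59), miR-34b-5p (-1.04), miR-34a (-0.79) and miR-139-3p (0.63). MiR-212 had 0.50 (unadjusted p = 0.000698). MiR-301a (-0.29), miR-130a (-0.26) and let-7g (-0.27) then had unadjusted p of 0.0547, 0.0698 and 0.0586. Of the 257, 47 had an unadjusted p under 0.05 in the fit over all probe sets. In a refit over the 257 alone 31 of these 47 did so before GC content was regressed out and 25 after it, and 10 were lost at that step. MiR-337-3p, miR-669n, miR-673-5p and miR-93* were also lost at that step. MiR-154, miR-127, miR-188-5p, miR-17*, miR-20b and miR-106b* had no unadjusted p under 0.05 after it either. These had already lost it in the refit before GC content was regressed out. What set the GC pattern of MS2 replicates 3 and 6 was not tested.

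**Figure D5:**
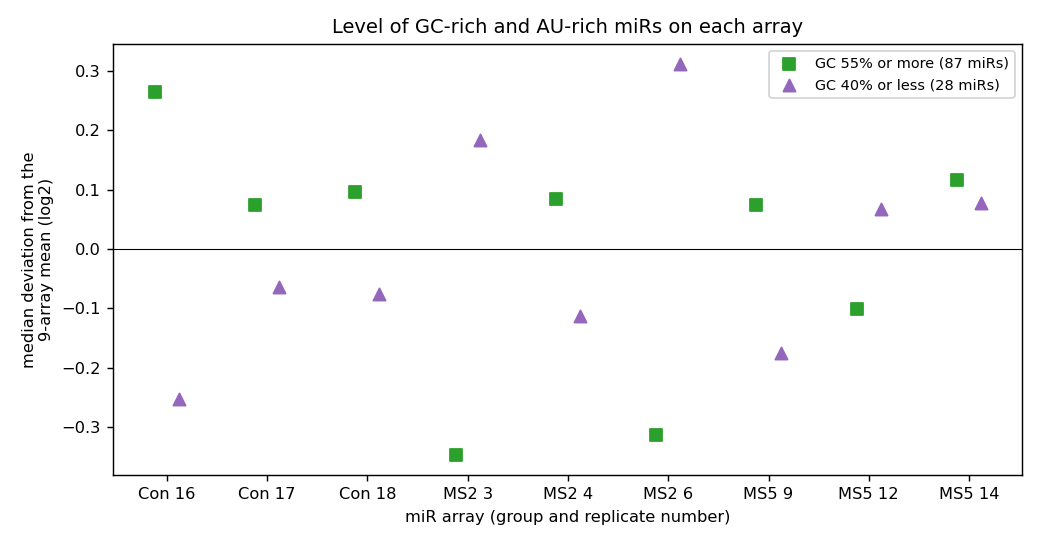
Median deviation from the 9-array mean (log2) of GC-rich miRs (squares) and AU-rich miRs (triangles) on each miR array. MS2 replicates 3 and 6 have the GC-rich miRs lowest, at -0.35 and -0.31, and the AU-rich miRs highest, at 0.18 and 0.31.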

How the data were processed

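The miR table holds log2 levels deposited by the authors: total RNA of 3 pups per group was run on Affymetrix miR 2.0 arrays, and after background correction and variance stabilization, probes were quantile normalized and combined into probe sets by median polish. Per the labels, RMA was used. Detection calls were not used here. The mRNA tables hold log2 values that the authors had background adjusted and quantile normalized. The scanner's spot intensity, as deposited by the authors, was matched against them, and its background flags, deposited by the authors as 0 or 1, were read.

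All 9 miR arrays entered 1 limma fit of 3 groups (limma 3.58.1, R 4.3.3), with Benjamini-Hochberg adjustment over 1412 probe sets, without a filter. Litter was not used. Exact permutation tests were two-sided. In a simulation with 3 arrays a group, 200 of 1412 probe sets were given a change of 1 (log2). The threshold recovered 97% of them and the adjusted calls 94%, along with 10 and 12 unchanged probe sets. In the measured data miR-448, miR-204 and miR-34b-5p differed by more than 1, with SE of 0.59, 0.54 and 0.41. Their adjusted p in limma were 0.599, 0.557 and 0.599. The simulated shares are therefore no guide to miRs of that spread.

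Named are the called miRs, the 12 largest positive and 12 largest negative differences with an unadjusted p under 0.05, the 10 miRs of the RT-PCR, their other arms and hairpins, and list members. Members and lists were chosen with earlier results of these data known. MiR-345 was taken out of the Dlk1-Dio3 list because it lies outside the cluster in RefSeq. Of 722 mature probe sets 213 matched 1 RefSeq sequence and 342 a hairpin, arm unresolved. Scaling, weighting, filtering and left-out arrays were varied. The number of arrays limits the precision.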

Additional observations from a re-analysis of the deposited data

Results flagged for a closer look

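3 of 51 groups of 5 mRNA arrays, over the marker and host genes read, had an array far from the other 4, where chance gives about 1 in 20. Htr2c, the host gene of miR-448, measured 12.95 on MS2 replicate 4 and 12.38 to 12.54 on the other MS2 arrays. Another Htr2c probe had 8.31 on MS2 replicate 4 and 8.30 on MS2 replicate 3, and a further one had 6.93 and 6.65. Xist measured 11.34 on MS5 replicate 9 and 5.9 to 6.05 on the other MS5 arrays, and 6.08 on Con replicate 19 and 5.93 to 5.97 on the other control arrays. It was well above background on only 1 of the 15 mRNA arrays, so its control values are close to background. The groups of 3 miR arrays are too small for this check.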

How the results depend on the processing

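No paired analysis was possible because the MS2 and MS5 arrays share no replicate number. The count of 6 calls stayed between 5 and 7 under a common median, quantile normalization on top, the level filter, mature probe sets only, the 6 arrays alone, an intensity trend and robust eBayes. It was 15 with array weights (9 higher, 6 lower), 42 with MS2 4 and MS5 9 left out, and from 3 (without MS5 replicate 14) to 43 (without MS2 replicate 4; 31 higher, 12 lower) when 1 array was left out. It was 12 without MS5 replicate 9 and 11 without MS5 replicate 12. Of the 43 and of the 42, 4 and 5 were among the 6. Both of these settings left the MS2 group with replicates 3 and 6, the arrays on which GC-rich miRs were lowest. The count of 99 at an unadjusted p under 0.05 was 42 with the level filter, where fewer probe sets were tested, 184 with MS2 4 and MS5 9 left out, and from 79 to 189 without 1 array. With the arrays at a common median its split was 52 higher and 45 lower, against 62 and 37. The count of 0 adjusted calls was 5 with MS2 4 and MS5 9 left out and ran from 0 to 1 without 1 array. Among miRs that were not called, the differences that changed sign were miR-214* (-0.012) and miR-1839-3p (-0.013) with MS2 4 and MS5 9 left out, and miR-337-5p (-0.027) with quantile normalization on top. MiR-1839-5p, miR-1983 and miR-153 had 0.012, 0.019 and 0.095 with array weights, 0.20, 0.17 and 0.27 with those 2 arrays left out, and miR-1839-5p and miR-153 0.040 and 0.085 with GC content regressed out. Over left-out arrays the ranges were -0.26 to 0.19 for miR-153, -0.016 to 0.19 for miR-1839-3p, -0.18 to 0.071 for miR-1839-5p, -0.14 to 0.067 for miR-1983, -0.018 to 0.27 for miR-214, -0.64 to 0.013 for miR-218, -0.0017 to 0.13 for miR-218-1*, -0.033 to 0.29 for miR-337-5p and -0.032 to 0.35 for miR-673-3p. The cause was not tested. Probe sets near the bottom of the scale, under a level of 5, have little room to fall.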
